A study of Mus musculus with 4 samples.

Results

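The data examined here are the N6-methyladenosine (m6A) sites of 10 genes of retinoic acid signalling: the retinoic acid receptors Rara, Rarb and Rarg, the retinoid X receptors Rxra and Rxrb, the binding proteins Crabp1 and Crabp2, and the enzymes Rdh10, Dhrs3 and Cyp26a1. A site belonged to a gene when its position and strand fell inside the span that the deposited lists give for that gene symbol. By this rule 382 of 881997 listed sites, in 10 of 29095 gene names, were members. RNA came from day 4 organoids of mouse retina, small tissues that stem cells form in culture. The wild-type (WT) line, Rx:GFP, gave 2 libraries, and a Mettl3 knockout (KO) of the same line gave another 2. The protocol says that the KO line also carries a doxycycline-inducible, HA-tagged METTL3. The treatment is given as none for all 4 libraries, and the medium of both genotypes held 0.1 µM of an additive that the labels call AGN. The labels do not expand this name, so whether it acts on retinoic acid signalling cannot be told from them. METTL3 is the enzyme that writes most m6A in messenger RNA, and Rx:GFP reports the eye-field gene Rax. The labels number the replicates 1 and 2 without saying whether they were separate cultures, so the spread between them may be technical.

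Retinoic acid is made from vitamin A in steps that begin with the oxidation of retinol to retinaldehyde, and it is broken down by CYP26 enzymes. It enters the nucleus with the help of CRABP proteins and binds RAR proteins, which sit on DNA as pairs with RXR proteins and switch from holding corepressors to holding coactivators. In the early eye, retinoic acid made by ALDH1A enzymes takes part in the shaping of the optic vesicle and cup, and the CYP26 enzymes keep it out of neighbouring tissue.

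Rarb and Cyp26a1 are themselves known targets of these receptors, and their promoters show the kind of sequence on which the pathway acts. A window of 250 bases before to 50 bases after the start of transcription, taken from RefSeq on GRCm38.p6, was searched on both strands. The search was for direct repeats of 4 receptor-binding hexamers in any combination, separated by 5 bases. The hexamers were AGGTCA, its relative AGTTCA, then GGGTCA, and its relative GGTTCA. The table held 16 windows of 8 of the 10 genes, and the repeat was found in 2 genes, Rarb and Cyp26a1. Among all 27025 genes of the table, 31 (0.115%) had it. The capitals mark the repeat. In the Rarb window, chr14:16575427-16575726 on the minus strand, it reads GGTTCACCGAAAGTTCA, and in the Cyp26a1 window, chr19:37697558-37697857 on the plus strand, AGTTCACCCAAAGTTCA lies on the opposite strand.
Rarb promoter: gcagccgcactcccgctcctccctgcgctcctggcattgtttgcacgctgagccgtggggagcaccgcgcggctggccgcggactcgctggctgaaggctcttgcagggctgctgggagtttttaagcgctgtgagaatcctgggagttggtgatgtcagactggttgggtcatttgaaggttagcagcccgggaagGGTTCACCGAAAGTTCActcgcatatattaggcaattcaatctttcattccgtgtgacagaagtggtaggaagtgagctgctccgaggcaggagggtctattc
Cyp26a1 promoter: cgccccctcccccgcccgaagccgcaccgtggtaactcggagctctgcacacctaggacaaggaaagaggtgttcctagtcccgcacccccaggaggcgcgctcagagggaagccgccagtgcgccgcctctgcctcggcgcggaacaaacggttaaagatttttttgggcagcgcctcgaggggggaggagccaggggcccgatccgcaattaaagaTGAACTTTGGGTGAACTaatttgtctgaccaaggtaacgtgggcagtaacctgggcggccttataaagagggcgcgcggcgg
A match describes the letters in this window and is not evidence of binding.

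The assay was GLORI, in which glyoxal and nitrite deaminate unmodified adenosine so that it is read as G, while m6A stays A. For each site the lists give the number of reads with A or G (the coverage) and the number still read as A (unconverted). Their ratio is called the level here, and a Wilson 95% interval is given where it matters, which covers counting error only. A listed site had at least 15 reads, at least 5 of them unconverted, and a level of at least 0.1. The authors' p-value, whose test is not named here, was at most 0.004 in every list. A site missing from a list therefore has no level in that library: it may have been converted, too thinly covered or above that p-value. The 4 lists held 215850 to 288516 sites with a median coverage of 38 to 41 reads. Coordinates are those of the lists. The submitters' processing notes name mm10. Of the 21473 deposited features whose symbol is in RefSeq, however, only 3.32% begin within 1000 bases of their GRCm38 start. The coordinates of the lists thus do not match GRCm38, and their build is not settled. The promoter windows above are on GRCm38.p6, so their positions and strands cannot be compared with the gene spans below. Sites were not assigned to exons or untranslated regions. The intron mark of the lists was set at 64.9% to 75% of the member sites per library, including sites in the last bases of genes, and was not used.

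Checks of the whole libraries bear on what follows. Listed sites of Mettl3, the markers and the pathway genes below were counted only where 1 protein-coding gene of that strand held them. Where no protein-coding gene did, 1 gene of another kind was taken. A gene without a listed site may thus have had sites in a stretch that overlaps another gene. The Mettl3 gene itself had 18 and 15 listed sites in WT, and 20 and 21 in KO. The gene's coverage was 50.6 and 45.9 in WT and 62.0 and 48.3 in KO, so its RNA was present in all 4 libraries. The sources used here do not say which part was deleted, so this does not test the genotype. The eye-field markers Six3 and Lhx2 were lower in the KO organoids, and Rax had 20 and 35 listed sites in WT and 0 in both KO lists. The gene coverage of Six3 fell by 3.01 on the log2 scale (limma adjusted p = 1.06e-05) and that of Lhx2 fell by 2.81. Pax6 did not pass (0.12), and Six6 had no listed site in any library. Of 5 markers of caudal and midbrain tissue, En1, Wnt1 and Irx3 together had 4 and 3 listed sites in WT and 44 and 37 in KO. En2 and Gbx2 had no listed site in any library. Wnt1 coverage rose by 2.16 (limma adjusted p = 0.000291), and En1 did not pass (0.40, limma adjusted p = 0.207). Of the neural progenitor genes Sox1, Sox2 and Nes, Sox2 passed (-0.79, limma adjusted p = 0.0268) and Sox1 and Nes, both at -0.16, did not. Of the pluripotency genes with coverage in all 4 libraries, Pou5f1 passed (-0.68, limma adjusted p = 0.0466) and Nanog did not (-0.70). Zfp42 had 8 and 2 listed sites in WT and 0 in both KO lists, and Klf4 had 1, in WT 2. The Sox2 call was lost without WT 2, KO 1 or KO 2 (limma adjusted p = 0.103, 0.061 and 0.146), as was that of Pou5f1 (0.349, 0.094 and 0.198). The WT and KO organoids thus differed in the level of regional markers. The part of this in the results below was not tested.

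The number of listed sites in the 10 genes was similar in all libraries: 111 and 110 in WT 1 and WT 2, and 103 and 96 in KO 1 and KO 2. Both KO counts were below both WT counts, and the ratio of the group means was 0.90. The whole lists held 227298 and 288516 sites in WT and 230299 and 215850 in KO, where KO 1 was above WT 1. The member counts lay further apart at higher levels. Sites with a level of at least 0.3 numbered 47 and 41 in WT and 21 and 29 in KO. That is 42.3% and 37.3% of the member sites in WT and 20.4% and 30.2% in KO, against 38.2% and 38.3% in WT and 30.5% and 34.7% in KO over all genes. Among well-covered member sites, those with at least 100 reads, 6 of 24 in WT 1 and 5 of 29 in WT 2 reached a level of 0.3. In the knockouts it was 1 of 21 in KO 1 and 0 of 16 in KO 2. Over all genes the shares of such sites were 12.7% and 12.5% in WT and 3.45% and 4.6% in KO. The highest level at that coverage was 0.903 and 0.820 in WT and 0.337 and 0.183 in KO. With 2 libraries a group an exact permutation test cannot give a p below 0.33, so these counts were not tested.

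**Figure D1:**
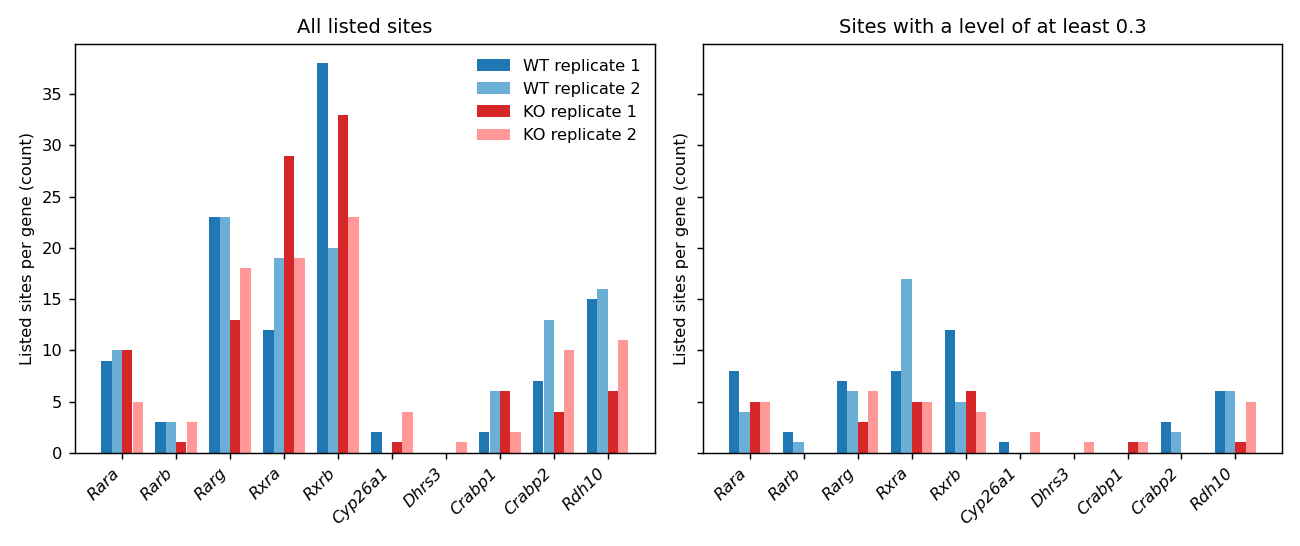
Number of listed sites per gene in each library (bars, count), for all listed sites on the left and for sites with a level of at least 0.3 on the right. Rxrb, Rarg and Rxra have the most sites, and the 47 and 41 high-level sites of the WT libraries compare with 21 and 29 in the KO libraries.

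The positions themselves were rarely shared. Of the 382 member sites 347 (90.8%) were in a single list, 32 in 2 lists, 3 in 3 lists and 0 in all 4; over all genes 91.9% were in a single list. The WT lists shared 16 member sites, which is 14.4% and 14.5% of each list, and the KO lists shared 3, or 2.91% and 3.13%. Over all genes the WT lists shared 12.6% and 9.94% of each list, and the KO lists 5.16% and 5.50%. All 16 had at least 20 reads in both WT libraries. Of these, 13 were in neither KO list (81.3%, 95% interval 57.0 to 93.4), and the same share over the 26264 such sites of all genes was 81.3%. In the opposite direction 3 of 3 member sites in both KO lists were in neither WT list (95% interval 43.9 to 100), against 68.0% over all genes. The median of the mean WT level at the 16 sites was 0.294, with a range of 0.111 to 0.861, and 10 of them (62.5%) lay within 1000 bases of the 3' end of the gene. Of all listed member sites, 35.1% to 46.4% per library lay that close to the end. The same share over the shared WT sites of all genes is not given here. Rxra held 4 of the 16 sites and Rxrb 5.

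Absence from a KO list says most where enough reads could be expected. The expected KO coverage of a site was its WT coverage scaled by the ratio of the gene's coverage in the KO library to that in the WT library, taking the lower value from the WT pair. The unconverted reads that a listing needs were counted from the limits on reads and level only, without the p-value. Of the 13 sites, 3 should have had at least 2 times that number in both KO libraries, had the lower WT level applied there. These were in Rxrb, Crabp2 and Rxra. A further 9 had less than that margin, and the Rarb site had no gene coverage to scale by. Where 50 or more reads were expected in each KO library, 7 of 9 shared sites (77.8%) were in neither KO list, against 80.5% over all genes. The individual sites are described below by the role of the gene.

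**Figure D2:**
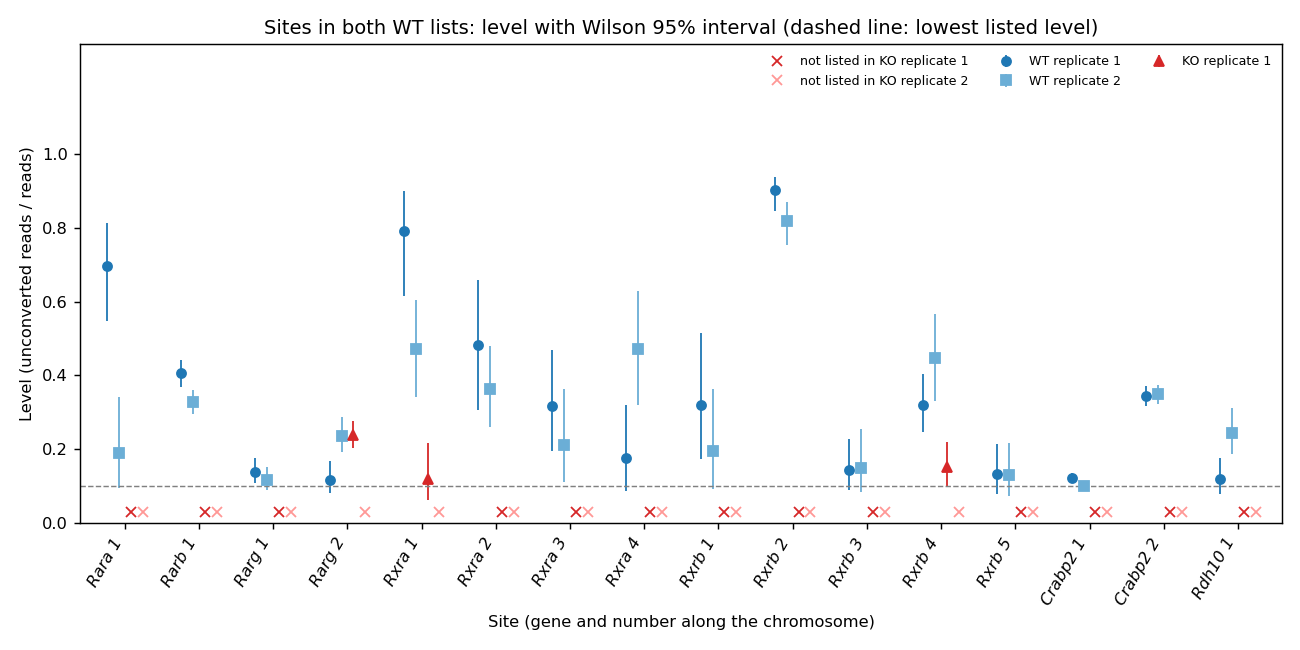
Level (unconverted reads over reads) of the 16 sites in both WT lists, with Wilson 95% intervals, numbered within each gene along the chromosome. Crosses at the bottom mark a KO list without the site, and the dashed line is the lowest listed level of 0.1. 3 sites have a KO 1 level (0.238 in Rarg, 0.118 in Rxra and 0.151 in Rxrb), and no site has a KO 2 level.

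Among the retinoic acid receptors, Rarg, which encodes RAR gamma, had the most listed sites: 23 and 23 in WT and 13 and 18 in KO. The gene lies at chr15:102143373-102165952 on the minus strand (ENSMUSG00000001288). Both KO counts were below both WT counts, as they were in 27.3% of all genes with a mean of at least 10 listed sites per library. Its best-covered sites crowded into the last 1000 bases of the gene and mostly had low levels. At position 102143703, 330 bases from the end, 25 of 214 reads were unconverted in WT 1 (0.117), 72 of 304 in WT 2 (0.237) and 130 of 547 in KO 1 (0.238). The KO 1 level was above that of WT 1 and about that of WT 2, and the site was not in the KO 2 list. At position 102143528 the levels were 0.138 (53 of 385 reads) and 0.117 (48 of 409), close to the listing limit, and neither KO list held it. At 8 bases from it, the KO 2 list held a site with 34 of 325 reads unconverted, so that stretch was well covered.

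Rara, which encodes RAR alpha, lies at chr11:98818644-98865768 on the plus strand (ENSMUSG00000037992) and had 9 and 10 listed sites in WT and 10 and 5 in KO. These ranges overlapped. Its 1 site in both WT lists, at 98864401, had 30 of 43 reads unconverted in WT 1 and 7 of 37 in WT 2, levels of 0.698 and 0.189. The WT replicates thus differed at this site by more than their counting intervals allow (0.549 to 0.814 and 0.0948 to 0.342). The share of adenosines converted in Rara also differed, at 91.6% in WT 1 and 96.0% in WT 2. It was 95.5% in KO 1 and 82.4% in KO 2. The part of this in the Rara levels was not tested. Rara also held the only KO member site with at least 100 reads and a level of at least 0.3, at 98864695 with 34 of 101 reads in KO 1. That site, like the others below that are in fewer than 2 lists of a genotype, was chosen after its values were seen.

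Rarb, which encodes RAR beta, had 3 and 3 listed sites in WT and 1 and 3 in KO, over a span of 388385 bases at chr14:5650540-6038924 on the plus strand (ENSMUSG00000017491). Its site at 5823126 was among the best covered of all members: 279 of 687 reads were unconverted in WT 1 and 258 of 789 in WT 2. The levels were 0.406 and 0.327 (mean 0.367 ± 0.056 SD, n = 2), and no KO list held the site. It lies 215798 bases from the 3' end of the span. The only gene coverage available for Rarb was 49.9, in WT 2, far below the 789 reads at this site. Whether these reads came from Rarb RNA was not tested. KO 2 had listed sites nearby, with 130 reads at 206 bases and 238 reads at position 5822910, at levels of 0.100 and 0.101. The third Rarb site of KO 2, at 5823359, had 14 of 78 reads unconverted (0.179). WT 1 listed the same position with 17 of 141 (0.121), so the KO 2 level was the higher, and WT 2 did not list it. KO 1 had no listed site within 162095 bases. Most Rarb sites carried a coverage value of the whole chromosome in place of a gene value, so no expected coverage could be given, and Rarb was not in the coverage test.

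The highest level among the shared sites was in a retinoid X receptor gene. Rxrb, which encodes RXR beta, lies at chr17:34250786-34257373 on the plus strand (ENSMUSG00000039656) and had 38 and 20 listed sites in WT and 33 and 23 in KO, counts that overlapped. At position 34256677, 696 bases before the 3' end, 139 of 154 reads were unconverted in WT 1 (0.903, interval 0.846 to 0.940) and 141 of 172 in WT 2 (0.820). The mean was 0.861 ± 0.059 (SD, n = 2). Neither KO list held it. About 159 and 124 reads were expected there in KO 1 and KO 2, of which 16 and 13 unconverted reads would have sufficed for a level of 0.1, and the lower WT level would have given 130 and 101. Depth nearby was of that size: KO 1 listed a site 14 bases away with 21 of 154 reads unconverted, and KO 2 a site 3 bases away with 18 of 180.

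At Rxrb position 34256911, 42 of 131 reads (0.321) and 29 of 65 reads (0.446) were unconverted in WT, and 21 of 139 (0.151) in KO 1. The KO 1 level was below both WT levels, and KO 2 did not list the site. At 34251418, near the start of the gene, the WT levels were 0.320 and 0.194 on 25 and 31 reads, too few to read anything from its absence in KO. The other Rxrb sites in both WT lists, at 34256869 and 34256936, had WT levels between 0.129 and 0.149. Rxrb also had 2 of the 3 member sites found in both KO lists: at 34251572 the levels were 0.327 (17 of 52 reads) and 0.137 (7 of 51), and at 34255871 they were 0.170 (9 of 53) and 0.276 (8 of 29). Neither was in a WT list.

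Rxra, which encodes RXR alpha, lies at chr2:27566452-27652969 on the plus strand (ENSMUSG00000015846) and had its largest site count in KO 1, with 12 and 19 sites in WT and 29 and 19 in KO. Its levels went the other way, with medians over the listed sites of 0.405 and 0.529 in WT and 0.216 and 0.273 in KO. Over the sites of all genes the medians were 0.246 and 0.241 in WT and 0.213 and 0.232 in KO. The share of genes with both KO medians below both WT medians is not given here. Rxra sites with a level of at least 0.3 numbered 8 and 17 in WT and 5 and 5 in KO. The KO counts were both below the WT counts in 34.4% of all genes with a mean of at least 5 such sites per library. At 27649739, 23 of 29 reads were unconverted in WT 1 (0.793), 24 of 51 in WT 2 (0.471) and 8 of 68 in KO 1 (0.118), so the KO 1 level was below both WT levels. At 27649792, 13 of 27 and 25 of 69 reads were unconverted in WT (0.481 and 0.362). Neither KO list held that site, where 36.9 and 28.1 reads were expected. At 27652819 the WT levels of 0.175 and 0.472 on 40 and 36 reads lay far apart.

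**Figure D3:**
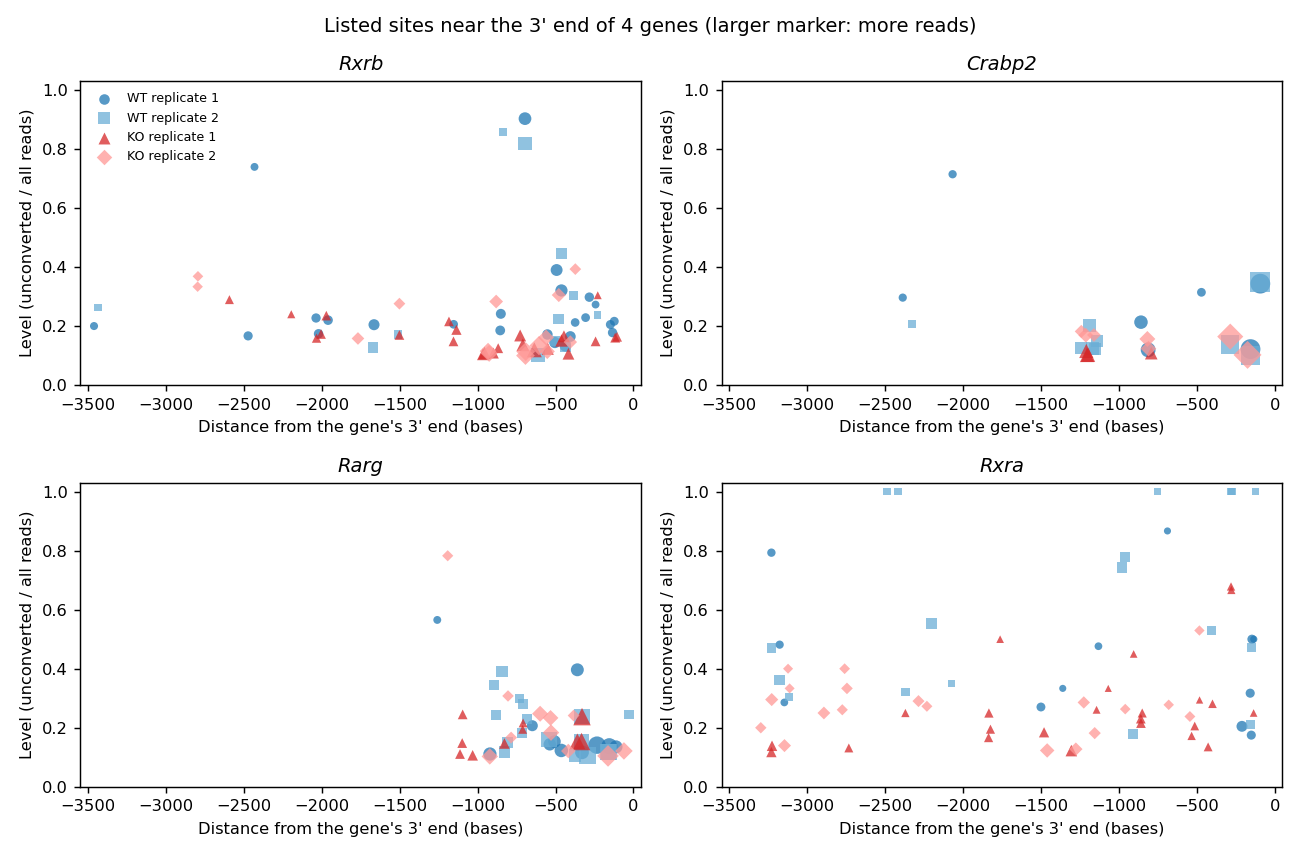
Level of every listed site near the 3' end of Rxrb, Crabp2, Rarg and Rxra (horizontal axis, distance from the end in bases), by library, with larger markers for more reads. The Rxrb pair at 0.903 and 0.820 and the Crabp2 pair at 0.344 and 0.348 are large WT markers without a KO counterpart.

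A level can be tested between genotypes only at sites with values in both. Over all genes, 1557 sites were in all 4 lists with at least 20 reads in each, and edgeR's quasi-likelihood test called 40 of them lower in KO (2.57%) and 0 higher at an adjusted p under 0.05; 0 of the 1557 were member sites. With limma on log2 odds the counts over all genes were 30 lower and 1 higher. Without KO 2, 3 member sites could be tested among 3194, the lone KO library being assumed to vary as the WT libraries do. None passed, and 0.0% of the 3194 did. The difference in log2 odds of being unconverted, KO minus WT, was -3.59 at Rxra 27649739 (edgeR adjusted p = 0.306). It was -1.76 at Rxrb 34256911 (edgeR adjusted p = 0.336) and 0.54 at Rarg 102143703 (edgeR adjusted p = 0.816). At an unadjusted p under 0.05 the Rxra and Rxrb sites were lower in KO, as were 12.7% of all sites tested.

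The binding proteins differed in how well they were covered. Crabp2, which carries retinoic acid to its nuclear receptors, lies at chr3:87855973-87860683 on the plus strand (ENSMUSG00000004885) and had the highest gene coverage of the 10. It had 7 and 13 listed sites in WT and 4 and 10 in KO. Its highest level was 0.714 and 0.353 in WT and 0.116 and 0.182 in KO, so every KO site was below 0.2. These maxima rest on few sites per library, and the share of all genes with such a gap is not given here. At 87860591, 92 bases before the 3' end, 413 of 1202 reads were unconverted in WT 1 and 452 of 1297 in WT 2. The levels, 0.344 and 0.348 (mean 0.346 ± 0.003 SD, n = 2), differed by less than their counting intervals (0.317 to 0.371 in WT 1). Neither KO list held the site, although 1100 and 823 reads were expected and 110 and 83 unconverted reads would have sufficed for a level of 0.1. The lower WT level would have given 378 and 283. KO 2 listed a site 82 bases away with 203 of 1985 reads unconverted (0.102), so the end of the gene was deeply read in that library, whereas KO 1 listed nothing within 700 bases. The other shared site, 87860528, had levels of 0.122 and 0.100 on 2288 and 2571 reads, at the listing limit, and its absence from the KO lists says nothing about a change.

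Crabp1, a second cytosolic carrier of retinoic acid, lies at chr9:54672032-54680394 on the plus strand (ENSMUSG00000032291). It had few listed sites, 2 and 6 in WT and 6 and 2 in KO, and none in both WT lists. Its site at 54672836 was in both KO lists and in no WT list, with 9 of 35 and 6 of 32 reads unconverted (0.257 and 0.188). The nearest WT sites were 25 bases away in WT 1 and 21 bases away in WT 2.

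Rdh10 makes retinaldehyde from retinol, the first step of synthesis. The gene lies at chr1:16175998-16203958 on the plus strand (ENSMUSG00000025921) and had 15 and 16 listed sites in WT and 6 and 11 in KO. Both KO counts were below both WT counts here too. That held for 27.3% of all genes with a mean of at least 10 listed sites per library. Its site in both WT lists, at 16201703, had 19 of 161 reads unconverted in WT 1 (0.118) and 44 of 181 in WT 2 (0.243), so the WT replicates differed. Neither KO list held it. About 123 and 76.7 reads were expected in KO, and the lower WT level would have been close to the listing limit. Dhrs3, which turns retinaldehyde back into retinol, lies at chr4:144619397-144654779 on the plus strand (ENSMUSG00000066026). Its only listed site was in KO 2, with 8 of 17 reads unconverted, and no other library listed a site in it. Cyp26a1, which degrades retinoic acid, lies at chr19:37686246-37689984 on the plus strand (ENSMUSG00000024987). It had 2 and 0 listed sites in WT and 1 and 4 in KO, with at most 19 reads in WT and 65 in KO. No position was shared between libraries. At these depths no statement on m6A in Dhrs3 or Cyp26a1 is possible.

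The share of adenosines converted sets the background against which levels are read. It is given per gene in the lists, and 7 of the genes had a value in all libraries. Their median was 95.5% and 95.7% in WT and 96.4% and 96.5% in KO, a difference of 0.786 percentage points (two-sided exact permutation p = 0.33, the smallest that 2 against 2 allows). Over all genes the difference was 0.758 points. Conversion was higher in both KO libraries than in both WT libraries for 4 of the 7 genes, and for 50.0% of all genes. It was most uneven in Rara, at 91.6%, 96.0%, 95.5% and 82.4% in WT 1, WT 2, KO 1 and KO 2. The part of this difference in the lower KO levels was not tested.

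Gene coverage, the coverage value that the authors give each gene, served as a measure of RNA level. It is given here as a multiple of the median gene of the library, and it was tested with limma on the log2 scale. In bulk organoids fewer cells of a type and less RNA per cell cannot be told apart. Of the 7 members with a value in all 4 libraries 0 passed at an adjusted p under 0.05, against 5.61% of the 8230 genes tested. At an unadjusted p under 0.05 Crabp1 and Rdh10 did, 2 of the 7 genes, against 23.2% of all genes. The median log2 difference of the 7 genes was 0.04, and that of all genes was -0.02.

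Crabp1 came closest. Its coverage was 1.99 and 1.69 times the median gene in WT and 1.25 and 1.16 times in KO, so both KO libraries were below both WT libraries. The log2 difference was -0.61 ± 0.17 (SE; limma adjusted p = 0.0602). It passed with limma's trend option (adjusted p = 0.049) and without the genes of lowest coverage (adjusted p = 0.030). Rdh10 had 0.817 and 1.06 in WT and 0.775 and 0.558 in KO, again without overlap, a log2 difference of -0.50 ± 0.21 (limma adjusted p = 0.170). Over all genes, 29.4% had both KO values below both WT values. Rara went the other way, with 0.594 and 0.510 in WT and 0.685 and 0.728 in KO, and a log2 difference of 0.36 ± 0.17 (limma adjusted p = 0.228). Both KO values were above both WT values in 24.7% of all genes.

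The remaining genes overlapped between genotypes. Crabp2 was the most covered, at 11.2 and 9.59 times the median gene in WT and 9.66 and 8.33 in KO (log2 difference -0.21 ± 0.17). Rarg had 2.05 and 2.26 in WT and 2.44 and 2.06 in KO (0.06 ± 0.17), and its sign turned without centring. Rxrb had 1.79 and 1.43 in WT and 1.74 and 1.56 in KO (0.04 ± 0.18), and its sign turned without centring too. Rxra had 0.566 and 0.670 in WT and 0.728 and 0.640 in KO (0.15 ± 0.17). The limma adjusted p of these 4 genes ranged from 0.513 to 0.916, which does not show that the RNA levels were alike. Cyp26a1 had a value of 0.390 in WT 1, 0.577 in KO 1 and 0.612 in KO 2, and Dhrs3 had 0.374 in KO 2 only, so neither was tested. On this scale the order was Crabp2, Rarg, Rxrb, Crabp1, Rdh10, Rxra and Rara. Crabp2 was above Rarg, Rarg above Rxrb, and Crabp1 above Rdh10 in every library, with no overlap over the 4 libraries, while the other neighbours in the order overlapped. The 3 genes whose profile over the 4 libraries was nearest to that of Crabp1, by Euclidean distance in centred log2 coverage, were Rfc4 (0.140), Agps (0.168) and Rfc5 (0.186).

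**Figure D4:**
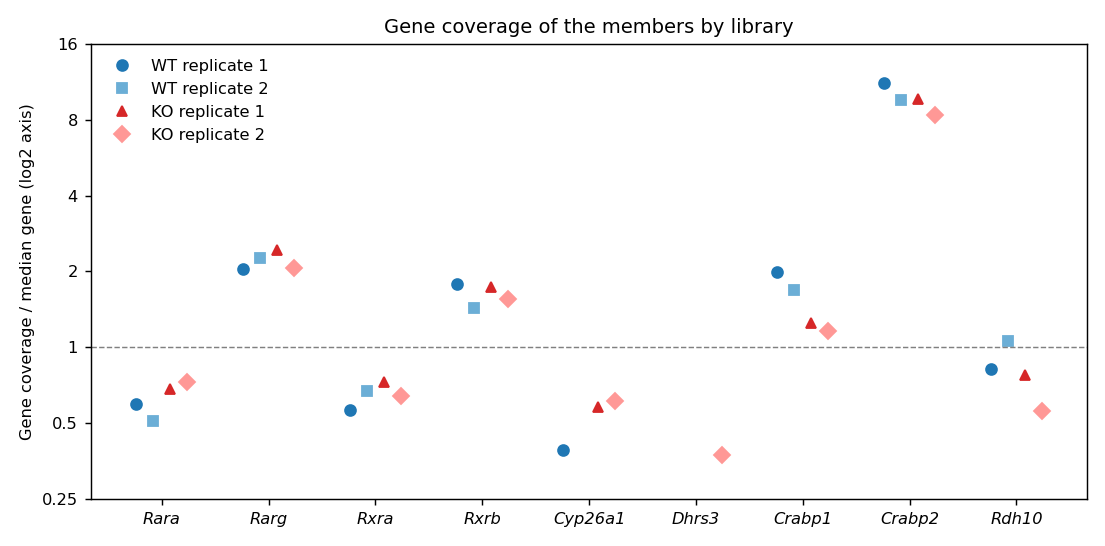
Gene coverage over that of the median gene of each library (log2 axis), per gene and library. All 4 values are shown for 7 genes, Cyp26a1 has 3 and Dhrs3 has 1. Crabp1 and Rdh10 have both KO points below both WT points, Rara has both above, and the other 4 complete genes overlap.

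A list of 36 further genes of the pathway was put through the same coverage test. Of these, 17 had coverage in all libraries, and 1 rose while 0 fell (2.58% of all genes rose and 3.04% fell). The median log2 difference of the 17 was 0.01. The gene that rose was Nr2f1, which encodes the orphan nuclear receptor COUP-TFI, known to respond to retinoic acid. Its coverage was 0.806 and 0.547 times the median gene in WT and 1.54 and 1.38 times in KO, and its log2 difference was 1.13 ± 0.20 (limma adjusted p = 0.0104). The call was lost without WT 2, KO 1 or KO 2 (limma adjusted p = 0.051, 0.080 and 0.063). The corepressor and coactivator genes named next did not pass. Ncor1 (-0.19), Hdac3 (-0.29), Ncoa2 (-0.24), Ncoa3 (-0.07), Crebbp (0.28) and Ep300 (0.10) stayed within 0.3 of 0 on the log2 scale, and Ncoa1 was at 0.65 (limma adjusted p = 0.0782). At an unadjusted p under 0.05 Ncoa1 and Rdh11 were higher too, which makes 3 of the 17 higher and 0 lower, against 10.9% and 12.2% of all genes. In these genes 31 sites were in both WT lists, of which 28 (90.3%) were in neither KO list, against 81.3% over all genes. Another 12 were in both KO lists, of which 11 (91.7%) were in neither WT list, against 68.0% over all genes. These differences were not tested.

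Of that list, Aldh1a2 and Stra6 had listed sites in WT only. Aldh1a2, which makes retinoic acid from retinaldehyde, had 12 listed sites in each WT library and 0 in both KO libraries. Its coverage was 0.859 and 1.15 times the median gene in WT, and it has no KO value because values come only with listed sites. Of 5637 genes with at least 12 sites in each WT list, 6 (0.106%) had none in either KO list. The reverse held for 5 of 5137 genes. The Aldh1a2 site in both WT lists, at 71202996, had 25 of 134 and 44 of 347 reads unconverted (0.187 and 0.127). Stra6, the cell-surface receptor that takes up retinol, had 5 and 3 sites in WT and 0 in both KO lists. Of 9515 genes with at least 3 in each WT list, 99 (1.04%) had none in either KO list. Aldh1a2 and Stra6 were singled out after their values were seen, and in these lists less RNA and less m6A cannot be told apart for them. Rxrg, Aldh1a1, Aldh1a3, Lrat, Bco1, Sin3a, Hoxb1, Cdx1, Stra8, Nr2f2 and Tgm2 had no listed site in any library, leaving aside sites inside overlapping genes. Cyp26b1 had 1 in WT 2 and 1 in KO 1, and Cyp26c1 had 1 in KO 2.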

How the data were processed

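Fragmented poly(A) RNA was deaminated with glyoxal and nitrite and read from both ends, per the labels' protocols. The genome build in the submitters' processing notes is mm10; the aligner is not given in the sources used here. The authors deposited 1 list of sites per library, with the counts of all and of unconverted reads, the fraction of unconverted reads and the p-value of each site, and the conversion fraction and mean coverage signal of its gene, per the file headers. The counts were used as deposited. Values on both strands over more than 10000000 bases (20 or 21 per library) were taken as chromosome-wide and left out of gene values.

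Gene coverage was tested with limma 3.58.1 on log2 values centred on the median gene, over 8230 genes. Site counts were tested with edgeR 4.0.16 (quasi-likelihood, a term per library) at sites with at least 20 reads. The threshold was a Benjamini-Hochberg adjusted p of 0.05. Scripts were tested on simulated data. The genes, the lists and the rule for named items (all 10 genes; per gene up to 3 sites in both WT lists with the highest level; sites in both KO lists; pathway genes past the threshold; the 3 genes nearest the leading gene) were chosen with earlier results of these data known. Same-numbered WT and KO libraries did not deviate together over genes (correlation -0.028), so the numbers were not used as pairs. Sequence around the sites was not analysed here. A few genes of the lists are not reported here.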

Additional observations from a re-analysis of the deposited data

How the results depend on the processing

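The count of members past the coverage test, 0, became 1 (Crabp1, lower in KO) without the genes of lowest coverage (limma adjusted p = 0.030) and with limma's trend option (0.049). With the replicate number as a block it stayed 0 (Crabp1 adjusted p = 0.053), the pathway count stayed 1, and the site test called 50 lower and 3 higher against 40 and 0. The pathway count ranged from 0 to 2 when single libraries were left out: 2 without WT 1 (Ncoa1 and Nr2f1), 0 without WT 2 or KO 2, and 1, Meis1 in place of Nr2f1, without KO 1. Leaving out KO 1 raised the share of shared WT sites absent from the KO lists to 100% (range 81.3 to 100), and over all genes from 81.3% to 87.6%. The share was 71.4% at a level of at least 0.2 and 66.7% at 0.3, against 83.4% and 83.0% over all genes. The ratio of listed sites, KO over WT, moved from 0.90 to 0.979 at a coverage of at least 50. It moved to 0.707 at a level of at least 0.2 and to 0.568 at 0.3. The same ratios over all genes are not given here, and the cause was not tested. The small differences of Rarg and Rxrb turned sign without centring (-0.050 and -0.070) and when single libraries were left out: Rarg ranged from -0.061 to 0.184 (below 0 without WT 1 or KO 1) and Rxrb from -0.117 to 0.194 (below 0 without WT 2 or KO 1). Without centring the median of all genes moved from -0.02 to -0.13 and the calls over all genes from 212 higher and 250 lower to 101 and 299. They became 370 and 414 without the genes of lowest coverage, and ranged over 45 to 210 and 56 to 188 without single libraries. The level test called 117 lower and 51 higher with Fisher's exact test on summed counts, 159 and 10 without KO 1, 70 and 1 without WT 1, and 0 without KO 2. No member site in both KO lists remained at a level of at least 0.2. Depth left Dhrs3 and Cyp26a1 without a test.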
